A study of Mus musculus with 13 samples.

Results

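The miR-148 and miR-152 family was followed across 13 mouse microRNA arrays. Its members were all names on the array equal to miR-148a, miR-148b or miR-152 or extending one of these by a hyphen, which gave 6 mature miRNAs of the 1122 mouse miRNAs on the array. The 6 are the -3p and -5p arms of miR-148a, miR-148b and miR-152, and 2 of them, mmu-miR-148a-3p and mmu-miR-148b-3p, gave signal. The study compared normal thymocytes with T-cell acute lymphoblastic leukaemia (T-ALL) driven by N1ICD, the constitutively active intracellular part of Notch1. Normal cells were double-negative (DN, CD4- CD8-) and double-positive (DP, CD4+ CD8+) thymocytes, taken by cell sorting from thymuses of C57BL/6 animals. The leukaemias were early-stage (ES) and late-stage (LS) T-ALL, both CD4+ CD8+ cells obtained by sorting spleens of C57BL/6 bone marrow chimeras whose marrow was transformed with N1ICD. Each of these 4 groups has 3 biological replicates. M295 is a cultured T-ALL line of C57BL/6 origin with 1 array. Since every T-ALL sample was splenic and every normal one thymic, disease and tissue of origin cannot be told apart. A sort on CD4 and CD8 alone does not separate N1ICD cells from other CD4+ CD8+ cells of a chimera. The labels used here give no age of the mice and do not say how N1ICD was delivered.

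MicroRNAs are short RNAs that, loaded into an Argonaute protein, pair through their seed (bases 2 to 8) with target messenger RNAs and lower the output of these messages. Members of the family share a seed and are encoded by separate genes on different chromosomes. They are known as repressors of the maintenance DNA methyltransferase Dnmt1, and miR-148a is known in lymphocytes as a repressor of the pro-apoptotic protein Bim.

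The -3p arms are shown first because they carry the shared seed and because all the signal measured for the family came from them. The seed is in capitals, sequences run 5′ to 3′ and come from RefSeq with coordinates on GRCm38.p6.
miR-148a-3p: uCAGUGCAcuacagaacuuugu
miR-148b-3p: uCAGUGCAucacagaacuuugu
miR-152-3p: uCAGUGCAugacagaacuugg
All 6 members matched an entry, and of the 1679 mature mouse names in the table these 3 alone had this seed. Counted from 1 at the 5′ end, miR-148b-3p differs from miR-148a-3p by C9U and U10C, which leaves 20 of 22 bases alike. miR-152-3p differs from miR-148a-3p by C9U, U10G and U20G over the 21 bases they can be compared on and is 1 base shorter. The differences between the 3 arms thus all lie outside the seed. miR-148a-3p lies at chr6:51269829-51269850 on the minus strand, miR-148b-3p at chr15:103285185-103285206 and miR-152-3p at chr11:96850439-96850459, both on the plus strand. The hairpin gene Mir148b (chr15:103285125-103285221) lies within the span of Copz1 and Mir152 (chr11:96850393-96850465) within that of Copz2, 2 paralogous genes for a coatomer subunit. Mir148a (chr6:51269812-51269910) lies within the span of the predicted protein-coding gene Gm38821, and its nearest other protein-coding gene, Nfe2l3, begins 162759 bases away. Whether the hairpins are exonic or intronic was not determined. The Mir148a hairpin is shown because 1 of its 2 arms was measured and the other was not above background on any array. The -5p arm comes first and the -3p arm second, both in capitals.
Mir148a: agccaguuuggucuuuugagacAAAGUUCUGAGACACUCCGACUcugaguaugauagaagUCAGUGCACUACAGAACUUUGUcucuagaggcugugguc

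Signal is given as log2 of the background-subtracted intensity relative to the 75th percentile of the same array, with a common floor of -7.59, so 0 is the 75th percentile of the miRNAs found above background on all 12 primary arrays. To count as above background, a miRNA needed the scanner software's flag on 50% or more of the spots kept for 1 of its probes. This was met by 115 mouse miRNAs on the array ES 1 and by 157 to 257 on the other 12. ES 1 also had the most variable negative controls, with an SD of 18.7 intensity units against 5.21 to 7.11 elsewhere. Since these are bulk RNA samples, fewer cells that hold a miRNA and less of it in each cell cannot be told apart.

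mmu-miR-148a-3p was present in all normal thymocytes and was low or not detected on most leukaemia arrays. Its log2 signal was -2.36, -2.15 and -2.42 in the 3 DN samples and -2.97, -2.84 and -3.14 in the 3 DP samples. In early-stage T-ALL it was -5.01, -7.59 and -2.65 in ES 1, ES 2 and ES 3. In late-stage T-ALL it was -5.23 in LS 1 and at the floor of -7.59 in LS 2 and LS 3. All 6 thymocyte samples were above background, and of the 6 primary T-ALL samples 2 were, ES 3 and LS 1. ES 3 lay inside the thymocyte range, between the DP and the DN samples, and the other 5 T-ALL samples lay below every thymocyte sample. Set against the thymocyte mean of -2.65 ± 0.39 (SD, n = 6), LS 1 was 5.98-fold lower and ES 3 equal to it. ES 2, LS 2 and LS 3, which were not above background, were each at least 30.8-fold lower. ES 1 was 5.15-fold lower by its own value, which was not above background either.

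**Figure D1:**
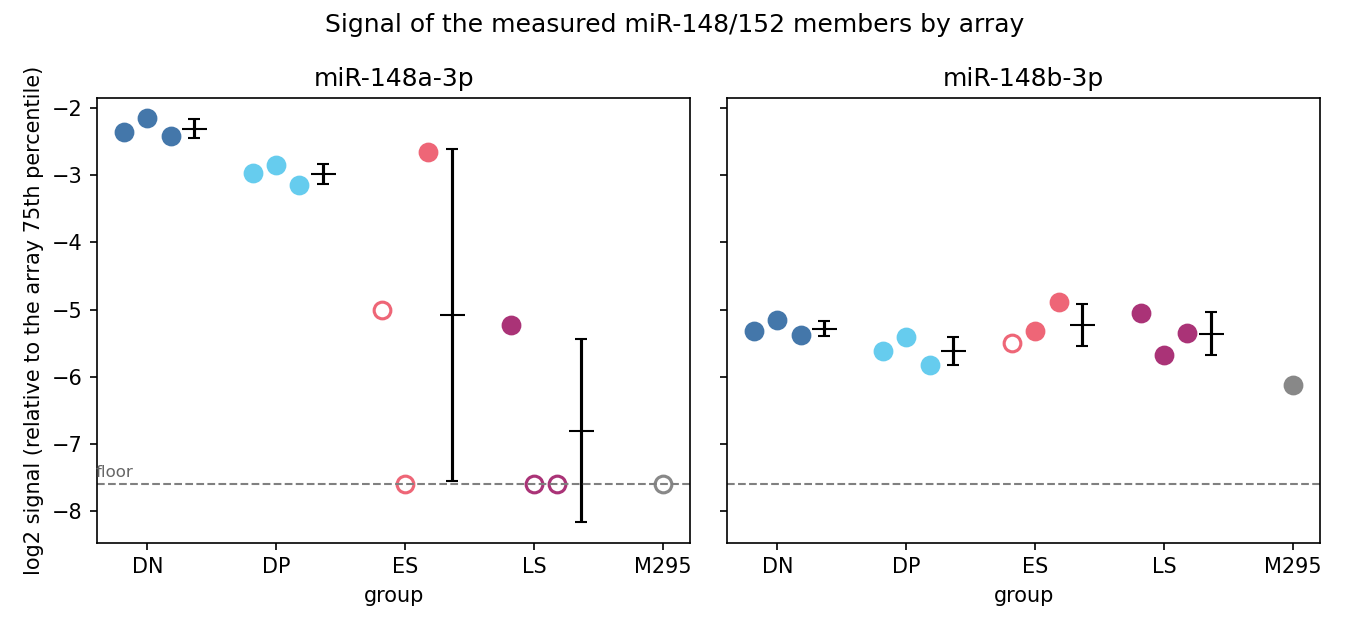
Log2 signal of miR-148a-3p (left) and miR-148b-3p (right), relative to the array's 75th percentile, by group. Filled points are arrays above background and open points are arrays that were not, black bars are group means with SD (n = 3), and the dashed line is the floor of -7.59. miR-148a-3p spreads from -2.65 to the floor over the T-ALL arrays, while miR-148b-3p stays between -5.83 and -4.88 on all 12 primary arrays.

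By unscaled intensity, too, 5 of the 6 T-ALL arrays lay below every thymocyte array, and ES 3 was as bright as the brightest of these. Background-subtracted intensity of miR-148a-3p was 299, 344 and 252 for DN. For DP it was 234, 316 and 191, for the ES arrays 45.7, 1.81 and 345, and for the LS arrays 50.6, 1.08 and 0.674. Both probes for this miRNA, each printed on up to 20 spots per array, carried the difference. The lower probe had mean log2 signals of -3.03 ± 0.40 (SD, n = 6) in thymocytes and -6.18 ± 1.81 (SD, n = 6) in T-ALL, a difference of -3.15. The brighter probe had -2.34 ± 0.39 and -5.77 ± 2.19, a difference of -3.43. In T-ALL the lower probe was above background on 1 array, ES 3, and the brighter on 2, ES 3 and LS 1. LS 1 thus counted as above background through the brighter probe alone, and the size of both differences depends on the floor. In the authors' deposited table, which is quantile normalised, miR-148a-3p had values of 7.27 to 8.01 on the thymocyte arrays, 5.85, 3.50 and 6.79 on the ES arrays and 4.96, 3.38 and 3.38 on the LS arrays. In that table ES 3, too, lay below every thymocyte array. The median of every column of the authors' deposited table is 3.29, so the values of LS 2, LS 3 and ES 2 there lie close to that median.

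**Figure D2:**
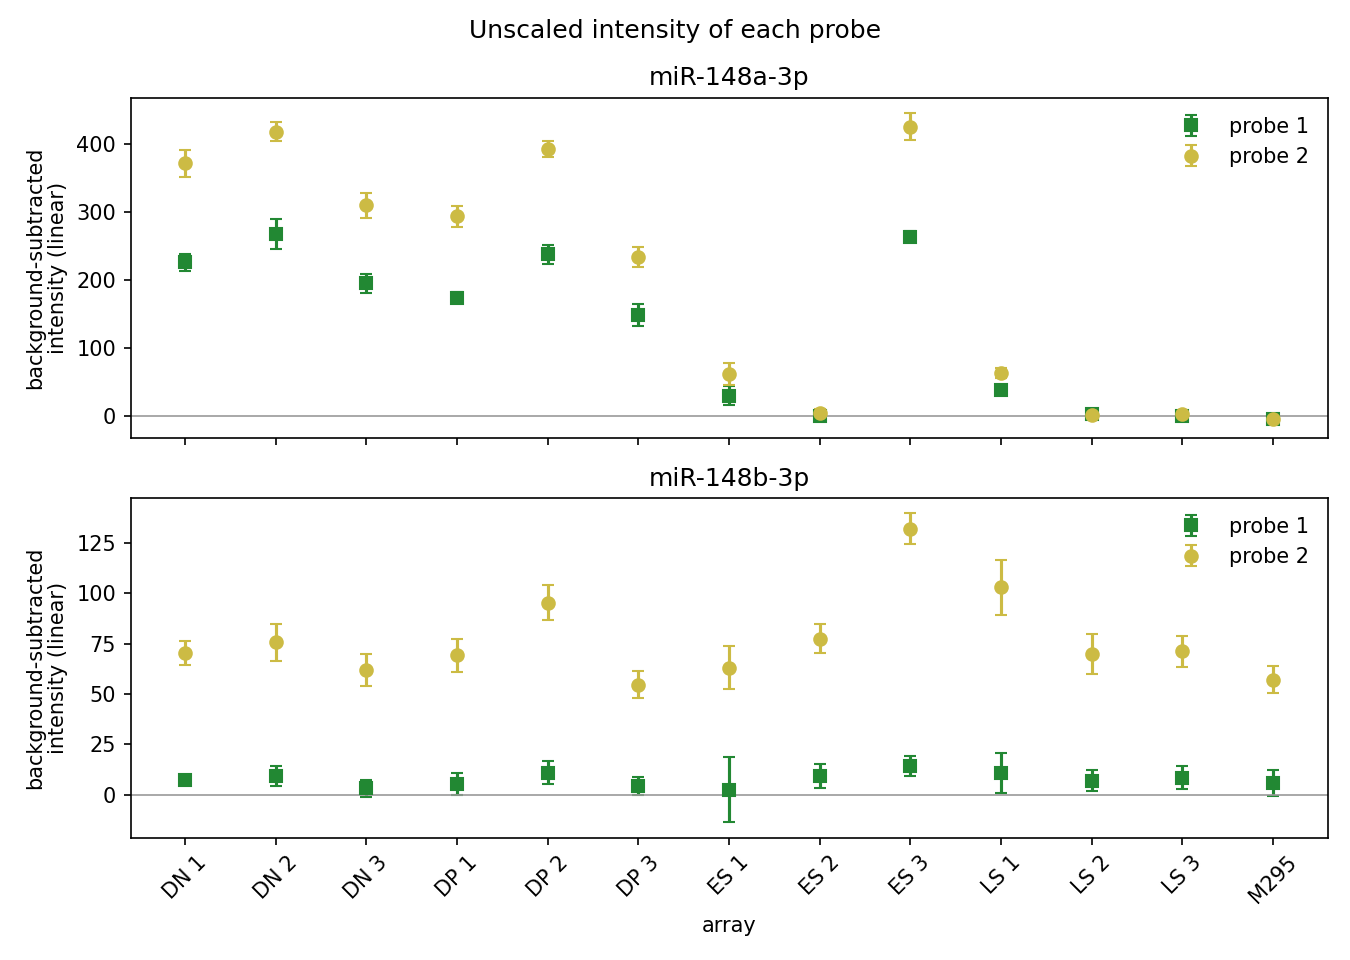
Background-subtracted intensity (linear, unscaled) of each of the 2 probes for miR-148a-3p (top) and miR-148b-3p (bottom) on all 13 arrays, with bars for the SD over the spots of a probe. Both miR-148a-3p probes drop together on ES 1, ES 2, LS 1, LS 2, LS 3 and M295 and reach 264 and 426 on ES 3; for miR-148b-3p probe 1 was not above background on any array.

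Against thymocytes, miR-148a-3p was lower in primary T-ALL by 3.30 ± 0.73 on the log2 scale (SE; 95% interval -4.91 to -1.68), a 9.83-fold difference with ES 2, LS 2 and LS 3 held at the floor (limma, Benjamini-Hochberg adjusted p = 0.00392). Group means were -2.65 ± 0.39 (SD, n = 6) in thymocytes and -5.94 ± 2.02 (SD, n = 6) in T-ALL. A call in this comparison was common, since 57.2% of the 229 tested miRNAs were called and 25.8% were called lower. A miRNA was tested if above background on every array of 1 or more groups, and miR-148a-3p met this through DN and DP alone. Entry through the groups where it was high favours a lower value in T-ALL. By size, the log2 difference of miR-148a-3p ranked 1 among the 229, and by p-value it ranked 59, with an SD of 2.02 between the T-ALL samples. Its size depends on where undetected arrays are placed, with -2.80 when the floor was 1 log2 unit higher, -3.80 when it was 1 lower and -1.78 with normexp background correction and quantile normalisation. The direction held under all 26 alternative settings. Arrays lay on 2 slides that each held all 4 groups. With slide as a block the log2 difference was -3.09 (adjusted p = 0.00978). Within slide 1, with 2 thymocyte and 4 T-ALL arrays, it was -3.69 and did not pass (adjusted p = 0.137), in a fit whose spread comes from the ES and LS arrays alone. Within slide 2 it was -2.48, a value given without a test because ES 3 and LS 3 are each the one array of their group there and the spread would come from thymocytes alone.

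Late-stage T-ALL passed the test against either thymocyte stage. LS cells had a mean of -6.80 ± 1.37 (SD, n = 3) and DP thymocytes one of -2.98 ± 0.15 (SD, n = 3), a log2 difference of -3.82 (SE 1.03, 95% interval -6.10 to -1.54, limma adjusted p = 0.0105), or 14.1-fold lower in LS with LS 2 and LS 3, which were not above background, held at the floor. No LS sample overlapped a DP sample, as was so for 36.7% of tested miRNAs in that direction, and 58.5% were called in either direction. Against DN, with a mean of -2.31 ± 0.14 (SD, n = 3), the log2 difference in LS was -4.49 (SE 1.03, interval -6.78 to -2.21, limma adjusted p = 0.0120), 22.5-fold lower and the largest of the 229 with the same 2 arrays at the floor. With normexp and quantile normalisation these log2 differences were -1.77 and -2.30, and both passed. In LS against DN, with the scaling used above and not these alternatives, 33.2% of tested miRNAs were called in either direction and 7.42% were called lower. Both LS calls were lost when all 1122 mouse miRNAs were tested without a filter (adjusted p = 0.0923 against DP and 0.119 against DN) and within slide 1 alone (0.237 and 0.256), where LS has 2 arrays and DN and DP have 1 each.

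Early-stage T-ALL passed against neither, and its samples differed widely, with ES 3 as high as a thymocyte sample by the scaling used here. The ES mean was -5.08 ± 2.47 (SD, n = 3), and the log2 difference from DP was -2.10 (SE 1.03, interval -4.38 to 0.18, limma adjusted p = 0.116), in a comparison that called 46.3% of tested miRNAs. Without ES 3 the log2 difference was -3.32 and passed (adjusted p = 0.00746), and without ES 2 it was -0.85 (adjusted p = 0.380). On slide 2, where ES 3 is the one ES array, it was 0.34, in the opposite direction. From DN the ES log2 difference was -2.77 (interval -5.06 to -0.49, adjusted p = 0.145), with 6.55% of tested miRNAs called. Every ES sample was below every DN sample, as it was for 16.2% of tested miRNAs, and without ES 3 the difference was -3.99 (adjusted p = 0.0146). Between the stages, LS was lower than ES by a log2 difference of -1.72 that did not pass (SE 1.03, interval -4.00 to 0.56, limma adjusted p = 0.399), where 2.62% of tested miRNAs were called. The value was -0.50 without ES 3, and on slide 2, with 1 array of each stage and so no test, it was -4.94.

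Between the normal stages, miR-148a-3p was 1.60-fold higher in DN than in DP, and every DN sample lay above every DP sample, as for 40.6% of tested miRNAs. The log2 difference of 0.67 did not pass in the fit of all 12 arrays (SE 1.03, interval -1.61 to 2.96, limma adjusted p = 0.671), which called 29.3% of tested miRNAs. That fit pools the spread of this miRNA over all groups, and the SD was 0.14 and 0.15 in DN and DP against 2.47 and 1.37 in ES and LS. Fitted on the DN and DP arrays alone it passed (adjusted p = 0.00246), in a fit that called 164 of the 229 against 67 in the joint one.

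**Figure D3:**
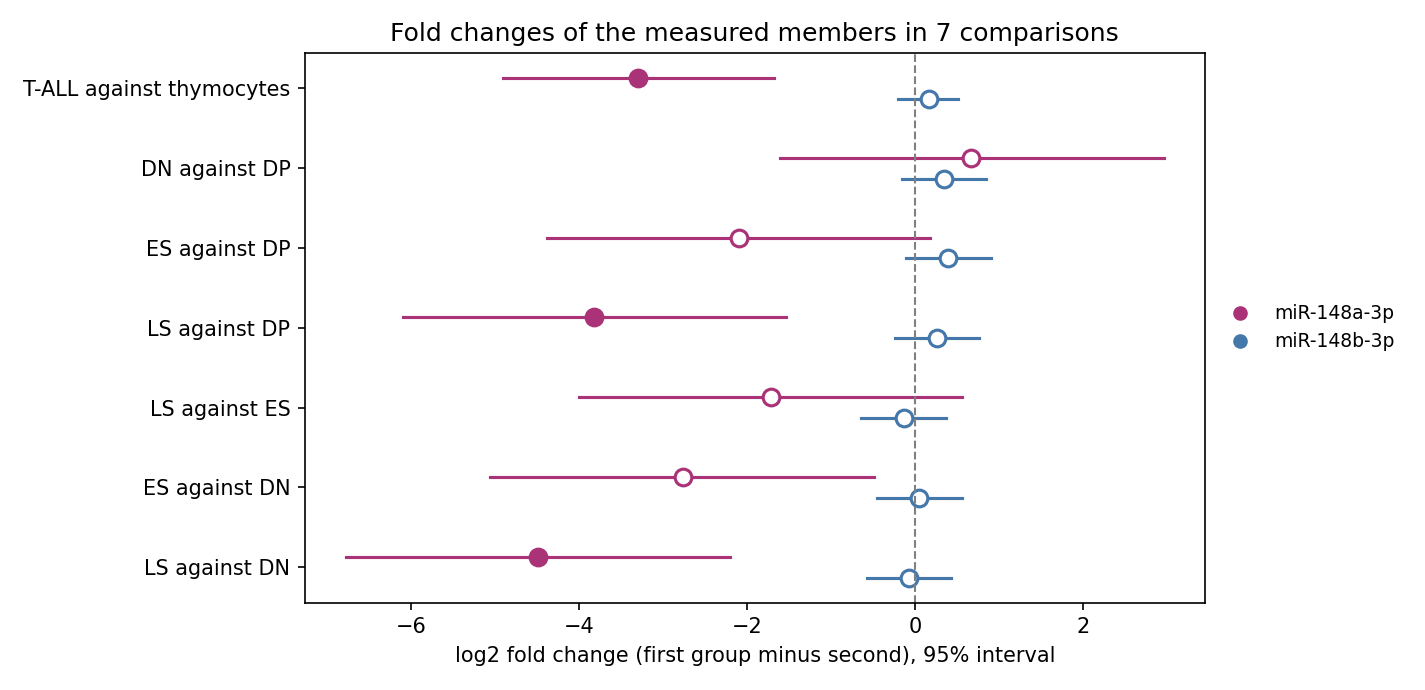
Log2 fold change (first group minus second) of miR-148a-3p and miR-148b-3p in the 7 comparisons, with 95% intervals from limma. Filled points have an adjusted p under 0.05. miR-148a-3p passes in T-ALL against thymocytes, LS against DP and LS against DN at -3.30, -3.82 and -4.49; miR-148b-3p passes in none, and its values lie between -0.13 and 0.39.

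mmu-miR-148b-3p, with the same seed, was measured at a low and even level. Its log2 signal was -5.31, -5.16 and -5.38 in the DN samples and -5.62, -5.41 and -5.83 in the DP samples. The ES samples had -5.49, -5.32 and -4.88 and the LS samples -5.05, -5.68 and -5.34. All groups overlapped apart from DN and DP, where every DN sample was above every DP sample, as for 40.6% of tested miRNAs. It was above background on every array except ES 1. Group means (SD, n = 3 each) were -5.28 ± 0.11 for DN, -5.62 ± 0.21 for DP, -5.23 ± 0.31 for ES and -5.36 ± 0.31 for LS. The log2 difference of T-ALL from thymocytes was 0.16 (SE 0.16, 95% interval -0.20 to 0.51, limma adjusted p = 0.427), an interval far from the -3.30 of miR-148a-3p. It was 0.39 for ES against DP (interval -0.11 to 0.90), 0.26 for LS against DP (-0.24 to 0.76), 0.34 for DN against DP (-0.16 to 0.84) and -0.13 for LS against ES (-0.64 to 0.37). Against DN it was 0.05 for ES (-0.45 to 0.56) and -0.08 for LS (-0.58 to 0.43). None of the 7 passed, with adjusted p-values from 0.171 to 0.931. The sign of such small values moves with the scaling. For T-ALL against thymocytes it turned to -0.15 with quantile normalisation, which moved the median of all tested miRNAs from -0.12 to -0.23. Only 1 of the 2 miR-148b-3p probes carried signal. The other was not above background on any of the 13 arrays, so the mean over both probes sits lower than that of the detected one. Taken alone, the detected probe had a log2 difference of 0.15.

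The change of the pair was therefore unequal. The log2 signal of miR-148a-3p minus that of miR-148b-3p was 2.57 to 3.01 on the 6 thymocyte arrays. In T-ALL it was 0.48, -2.28 and 2.24 for ES 1, ES 2 and ES 3 and -0.17, -1.91 and -2.25 for LS 1, LS 2 and LS 3. The values of ES 2, LS 2 and LS 3 are upper limits set by the floor, and on ES 1 neither miRNA was above background. On ES 3, miR-148a-3p was at the thymocyte mean of -2.65, and miR-148b-3p was higher than on any other primary array, at -4.88. As given, all 6 T-ALL arrays were below all 6 thymocyte arrays on this measure, ES 3 included. The share of other miRNA pairs with no overlap was not computed. The means of this measure were 2.81 ± 0.19 (SD, n = 6) in thymocytes and -0.65 ± 1.82 (SD, n = 6) in T-ALL. The difference was -3.46 (exact two-sided permutation p = 0.00216, the smallest that 6 against 6 allow). Without ES 1 the difference was -3.68 (exact permutation p = 0.00216), and over 21 settings it ranged from -4.03 without ES 3 to -1.70 with normexp and quantile normalisation. A scaling factor of the array cancels in this measure except on the 3 arrays where miR-148a-3p was at the floor. As the 2 miRNAs are read by different probes, the value compares their changes and says nothing of which is more abundant.

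The 2 measured members also differed in spread. Over the 6 primary T-ALL arrays the SD of miR-148a-3p on the log2 scale was 2.02, the 6th largest of 229 tested miRNAs, whose median SD was 0.61. Over the 6 thymocyte arrays its SD was 0.39, near the median of 0.36. For miR-148b-3p the SD over T-ALL was 0.29, ranked 191 of 229, and over thymocytes 0.24. The T-ALL samples thus ranged over 4.94 log2 units for miR-148a-3p, up to the floor, and over 0.80 for miR-148b-3p.

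The other 4 members gave no signal. miR-148a-5p, miR-148b-5p, miR-152-3p and miR-152-5p were above background on 0 of 13 arrays, with background-subtracted intensities from -10.8 to 6.46, and were not tested. In the authors' deposited table they had values of 2.49 to 3.62, around its median of 3.29. miR-152-3p, which has the family seed, was therefore not detectable in thymocytes or T-ALL at the sensitivity of this array. Of the 2 arms of the Mir148a hairpin printed above, only the -3p arm was measured.

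M295 had miR-148a-3p at the floor, with an intensity of -4.93 that was not above background, at least 30.8-fold under the thymocyte mean. In this it was like ES 2, LS 2 and LS 3. miR-148b-3p in M295 was above background at -6.12, which is 0.44 log2 units below the lowest primary T-ALL array and 1.77-fold under their mean of -5.29. There is 1 array of this line, so no test was made.

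Several miRNAs had a pattern across arrays like that of miR-148a-3p. Likeness was taken as Pearson's r of the log2 signal over the 12 primary arrays, which share groups, slides and the floor, and is a description without a test. The highest among tested miRNAs was for miR-155-5p, known for its role in lymphocyte activation, with r = 0.984. Its log2 signal was -5.29, -7.59 and -2.35 in ES 1, ES 2 and ES 3 and -4.77, -7.59 and -6.80 in LS 1, LS 2 and LS 3, so ES 3 and LS 1 again stood highest within their stages. miR-322-5p (r = 0.924) was at the floor on ES 2 and all LS arrays and at -3.21 on ES 3. miR-340-5p (r = 0.904) was at the floor on ES 1, ES 2 and all LS arrays and at -3.09 on ES 3. In T-ALL, miR-155-5p was above background on 2 of 6 arrays and miR-322-5p and miR-340-5p each on 1, and all 3 were on all 6 thymocyte arrays. They thus passed the filter on dim miRNAs through DN and DP alone. Each was lower in T-ALL than in thymocytes, by log2 differences of -2.62, -2.10 and -2.51 (limma adjusted p = 0.0146, 0.0130 and 0.00928). All 3 fell short of the threshold without the filter on dim miRNAs (adjusted p of 0.124, 0.113 and 0.0874), and miR-155-5p also on slide 1 alone. miR-425-5p (r = 0.834) and miR-484 (r = 0.802) followed with far smaller ranges and did not pass (adjusted p = 0.140 and 0.0549). The 5 most like miR-148b-3p were miR-31-5p, miR-185-5p, miR-29b-3p, miR-21-5p and miR-1224-5p, with r between 0.726 and 0.803. Between miR-148a-3p and miR-148b-3p themselves r was 0.152.

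**Figure D4:**
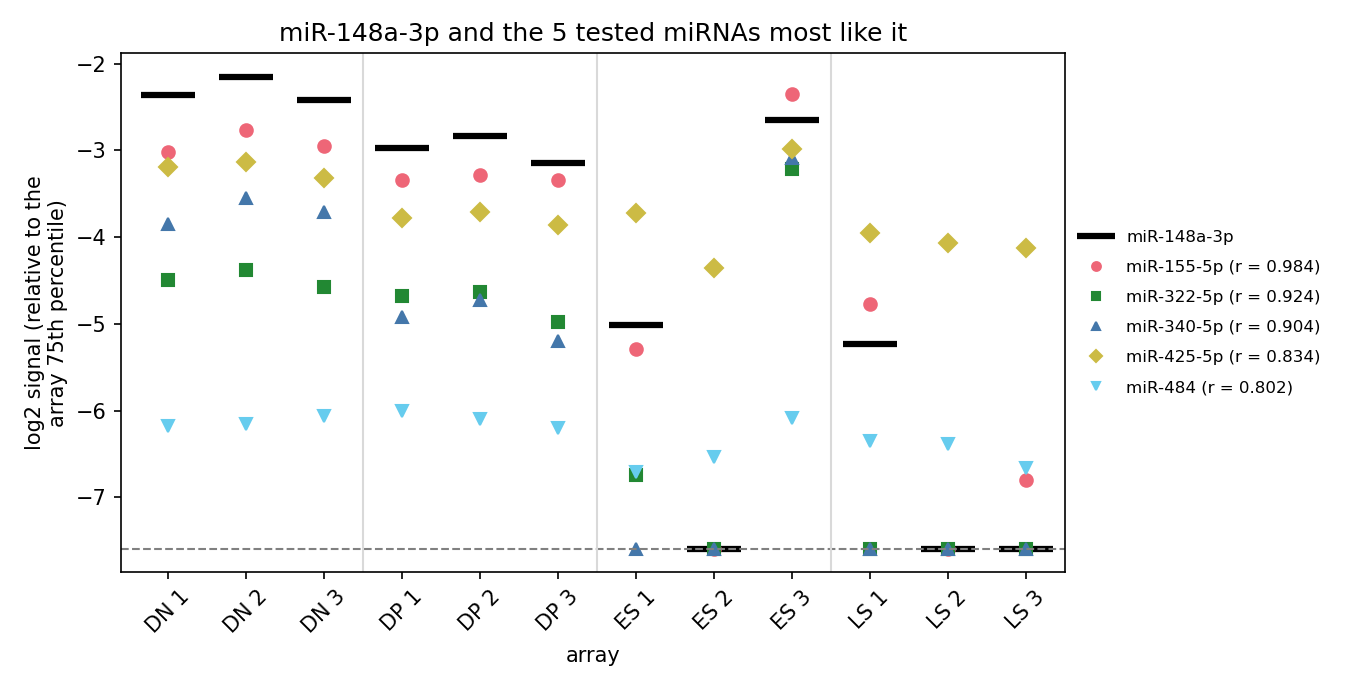
Log2 signal relative to the array's 75th percentile of miR-148a-3p (black bars) and the 5 tested miRNAs most like it over the 12 primary arrays, with r in the key and the floor dashed. miR-155-5p, miR-322-5p and miR-340-5p are high on ES 3, at -2.35, -3.21 and -3.09, and at the floor on ES 2, as miR-148a-3p is; miR-425-5p and miR-484 vary within 1.37 and 0.71 log2 units.

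miRNAs that share targets with the family were looked at next. Of 7 other miRNAs known to repress DNA methyltransferases, 6 were tested. Against thymocytes 1 was called higher in T-ALL and 1 lower, beside 57.2% of all tested miRNAs called, with a median log2 difference of 0.21 beside -0.12 for all. miR-342-3p was the higher one, by 1.99 (limma adjusted p = 0.000239), above background on all arrays. miR-126-3p was the lower one (adjusted p = 0.00217). It was above background on the 3 DN arrays, at -4.63, -4.65 and -4.69, and on none of the 6 T-ALL or 3 DP arrays, so no fold is given. It thus passed the filter on dim miRNAs through DN alone. Against DP it was called in neither ES nor LS (limma adjusted p = 0.263 and 0.398). Its call against thymocytes was lost in 1 of 26 alternative settings. miR-29a-3p, miR-29b-3p and miR-29c-3p differed by 0.07, 0.54 and 0.01 and did not pass. Against DP, miR-29b-3p and miR-342-3p were called higher in both stages and none was lower, in comparisons that called 46.3% (ES) and 58.5% (LS) of all tested miRNAs. Of 14 miRNAs known to repress Bim, 12 were tested. Against thymocytes none was called higher and 2 were called lower, with a list median of -0.27, beside 25.8% of all tested miRNAs called lower. These were miR-181a-5p, by a log2 difference of -1.50 (limma adjusted p = 0.00709), and miR-25-3p, by -0.62 (adjusted p = 0.00598). Both were called lower against DP in ES and in LS, and neither was called against DN. Against DN, miR-181a-5p was at -0.49 in ES and 0.19 in LS, and miR-25-3p at -0.49 and -0.46. The DN comparisons called 6.55% (ES) and 33.2% (LS) of all tested miRNAs. In T-ALL against thymocytes, members of the miR-17 family and miR-19 on that list lay between -0.31 and -0.13 and did not pass.

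A further group has nearly the same seed, moved by 1 base. The first 6 of its seed bases are the last 6 of the family seed, and 3 of its members are printed for comparison, with bases 2 to 8 in capitals.
miR-130b-3p: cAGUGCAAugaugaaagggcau
miR-301a-3p: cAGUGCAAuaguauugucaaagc
miR-721: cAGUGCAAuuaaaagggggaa
These did not move together in T-ALL. Of 5 on the array 4 were tested, with 1 called higher, 2 lower and a median log2 difference of -0.34, beside 57.2% of all tested miRNAs called. miR-721 was higher by 3.23 (limma adjusted p = 0.000150). It was above background on every T-ALL array but not on DN 3 or DP 3. It thus passed the filter on dim miRNAs through ES and LS alone, the groups where it was high. Over 26 alternative settings its difference ranged from 1.51 to 3.49, and the call was lost in 1. Its log2 signal was -6.68 to -5.43 in thymocytes and -3.67 to -1.20 in T-ALL, with no overlap, as for 15.3% of tested miRNAs in that direction. miR-301a-3p was lower by a log2 difference of -0.43 (adjusted p = 0.0126) and miR-130b-3p by -0.47 (adjusted p = 0.0453), and the last call was lost in 16 of 27 alternative settings.

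Markers of other cell types were summed as scaled signal, with values not above background set to 0. The 5 thymocyte markers were above background on all 13 arrays. Their sums were 6.43 to 6.97 in DN, 10.5 to 10.8 in DP, 3.07 to 4.75 in ES and 3.80 to 5.24 in LS. Of these 5, miR-128-3p, miR-181a-5p and miR-181b-5p were called lower in T-ALL against thymocytes, as were 25.8% of all tested miRNAs. Against DN, miR-128-3p was called lower in both stages (limma adjusted p = 0.0336 for ES and 0.014 for LS). There miR-181a-5p and miR-181b-5p were called in neither stage, in comparisons that called 6.55% (ES) and 33.2% (LS) of tested miRNAs. The myeloid marker miR-223-3p was at 7.23 on ES 3, the array on which miR-148a-3p was, by the same scaling, as high as in thymocytes. It was 0 on the other ES and all LS arrays and at most 0.0337 in thymocytes. The 2 mature lymphocyte markers summed to 0.0962 to 0.228 in thymocytes, 0.146 to 0.620 in ES and 0.155 to 0.373 in LS. Both, miR-150-5p and miR-342-3p, ordered the ES arrays as miR-148a-3p did. Log2 signals on ES 1, ES 2 and ES 3 were -3.47, -7.43 and -1.85 for miR-150-5p and -2.71, -2.77 and -1.55 for miR-342-3p. In LS miR-150-5p was -3.60, -5.05 and -6.55. The myeloid miR-223-3p (-5.93, -7.08 and 2.85) and the erythroid miR-451 (-2.17, -5.98 and -1.53) had the same ES order. None of the 5 thymocyte markers had it. The order was thus not particular to lymphocyte markers, and its cause was not tested. On ES 1 and ES 2, miR-148a-3p and miR-223-3p were not above background, and miR-342-3p was nearly equal. Which of these arrays was higher is therefore uncertain for miR-148a-3p, miR-223-3p and miR-342-3p. Of the 3 erythroid markers on the array, the sum reached 1.01 in thymocytes, 0.388 in ES and 1.60 in LS, with miR-451 highest in DN and LS 2. Endothelial and stromal, epithelial and liver markers summed to at most 0.0479 in any primary group, and the 4 pancreas markers were at 0 throughout. The T-ALL samples were sorted as CD4+ CD8+ cells, and the purity of the sort was not measured here. The part of other cell types in the level on ES 3 was not tested. Without ES 3 the log2 difference of miR-148a-3p between T-ALL and thymocytes was -3.91 (limma adjusted p = 0.000315). This was the largest of the values with 1 array left out, which ran from -3.91 to -2.67 and all passed.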

How the data were processed

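Per the file headers, Agilent Feature Extraction 10.7.3.1 read the 1-colour arrays, and the deposited scanner files hold a background-subtracted intensity per spot. The authors' deposited table holds quantile-normalised log2 values, as its columns rank miRNAs like the total intensity of the same array and share a median of 3.29. RMA, affy, MAS5 and GCOS are named, with no roles, per the submitters' processing notes. Here, control and outlier spots were removed (4.03 to 8.60% per array) and spots averaged per probe and probes per miRNA. Scaling put the 75th percentile of each array at 0 (log2), computed over 108 mouse miRNAs that were above background on all 12 primary arrays, with a floor of -7.59. The floor is the median over arrays of the lowest signal above background. To be tested, a miRNA had to be above background on every array of 1 or more groups of 3; the 229 that met this were fitted with limma 3.58.1 (R 4.3.3, version 1.17.8 of data.table; lmFit and eBayes, 1 mean per group, 12 arrays). Calls are at a Benjamini-Hochberg adjusted p under 0.05. The fit alone was tried on simulated normal values with an equal SD in all groups and no floor or filter. That trial does not cover a miRNA with arrays at the floor or unequal spread, such as miR-148a-3p. A fold under an array that was not above background is set by the higher of its own value and the lowest signal above background there. It is a lower bound for arrays at the floor. For ES 1, whose own value lay above the floor, it is an estimate.

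Named miRNAs are the family members, the 5 tested miRNAs most like each of the measured members, and called members of the lists; list members that did not pass and are named beside them, and miR-451, were chosen after their values were seen. Members and lists were chosen with earlier results of these data known. Alternatives were other scalings, filters, floors, slides, blocks and leaving out each array. The labels used here do not pair arrays across groups. Correlations of same-numbered arrays were positive in every replicate for DP and LS only, at 0.216, 0.183 and 0.497. Single values of other pairs were as high, such as 0.46 for replicate 2 of DN and DP, and a pairing was not tested. No 2 arrays had identical intensities. The number of arrays limits the precision.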

Additional observations from a re-analysis of the deposited data

How the results depend on the processing

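Under 29 settings, 592 of 664 recomputed values of the 25 tested results kept their direction and their side of the threshold, and 133 of 196 recomputed numbers of called miRNAs stayed within 1.5 times. miR-148a-3p was lower in T-ALL than in thymocytes under all 26 settings that gave a value, from -4.20 to -1.78 on the log2 scale, and lost its call only on slide 1 alone (-3.69). On that slide LS against DP (-3.44) and LS against DN (-4.05) fell short too, as they did without a filter (-3.82 and -4.49). ES against DP passed with quantile normalisation (-2.32), normexp (-1.27), the authors' deposited table (-1.93) and array weights (-3.44), and turned to 0.34 on slide 2. ES against DN passed with normexp (-1.80), the authors' deposited table (-2.59) and array weights (-4.05). DN against DP passed for miR-148a-3p when only these groups were fitted (0.67) and on slide 2 (0.70). LS against ES was -4.94 on slide 2, where ES and LS have 1 array each and the spread comes from DN and DP alone, so its p-value says nothing of the spread in T-ALL; this holds for every ES or LS value from slide 2. The difference of the 2 members was -3.77 on slide 1 and -2.81 on slide 2, where its exact permutation p of 0.0667 is the smallest that 2 against 4 arrays allow.

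miR-148b-3p passed for ES against DP when scaled over all mouse miRNAs (0.93), for LS against DN with quantile normalisation (-0.58) and for DN against DP with array weights (0.27). For ES against DP on slide 2 it was 0.74. Its other sign changes never passed: for T-ALL against thymocytes -0.15 (quantile), -0.09 (normexp), -0.10 (the authors' deposited table) and -0.03 (array weights). For LS against DP they were -0.15, -0.04 and -0.09 under the first 3 of these, for ES against DP -0.05 (normexp), and for LS against ES 0.01 (normexp) and 0.03 (slide 1). For ES against DN they were -0.15, -0.13, -0.12 and -0.06 under the same 4, and -0.09 on slide 1. The cause of these changes was not tested.

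With 1 array left out at a time, miR-148a-3p ranged from -3.32 to -0.85 for ES against DP and from -3.99 to -1.52 for ES against DN, both passing only without ES 3. miR-148b-3p ranged from -0.29 to 0.04 for LS against ES, -0.12 to 0.18 for ES against DN and -0.23 to 0.08 for LS against DN. A lone array left in a group is assumed to vary like the others. With the replicate block the T-ALL difference of miR-148a-3p was -3.30 (adjusted p = 0.00619) and with the block of DP and LS alone, added after seeing the data, LS against DP was -3.82 (adjusted p = 0.0197), and no call of either member changed. Requiring signal on all 12 arrays left out both members, so no value was obtained.

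Scaling alternatives moved the median of all tested miRNAs from 0.07 to as much as 0.59 (ES against DP) and from 0.28 to -0.38 (LS against ES). The share of calls that were higher went from 55.0% to between 38.5 and 59.5% for T-ALL against thymocytes, from 45.3% to between 24.1 and 70.9% for ES against DP and from 55.2% to between 40.7 and 55.2% for LS against DP. For DN against DP it went from 35.8% to between 29 and 50%, for LS against DN from 77.6% to between 55.6 and 77.6%, for ES against DN from 60.0% to between 30.0 and 95.2%, and for LS against ES, with at most 9 calls, from 83.3% to between 0 and 100%. Counts of called miRNAs ranged over all settings from 30 to 158 against 131 (T-ALL against thymocytes), 18 to 164 against 67 (DN against DP), 29 to 165 (ES against DP), 56 to 174 against 134 (LS against DP), 0 to 114 against 6 (LS against ES), 0 to 137 against 15 (ES against DN) and 3 to 135 against 76 (LS against DN). Signal near background limits miR-148a-3p on 4 of the 6 T-ALL arrays.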
